A study of Mus musculus with 16 samples.

Results

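The 45 genes described here encode the machinery that builds and gates the primary cilium, and they were found by their Ensembl identifiers among the 54838 identifiers of the count files. They comprise 4 members of CPLANE (ciliogenesis and planar polarity effector complex), 6 of intraflagellar transport complex A (IFT-A), 15 of complex B (IFT-B), 5 motor genes, 7 of the BBSome and 8 of the transition zone. The rule lists them by complex. RNA of E10.5 mouse embryos was sequenced, giving 16 libraries, 2 for each of 8 groups. Each library came from either the Head, taken above the branchial arch that is the third in order, or the Tail, taken behind the forelimbs. The 4 genotypes were wild type (WT), knockout of Fuz (Fuz KO), knockout of Gpr161 (Gpr161 KO) and the double knockout of both genes (DKO), with no treatment. The labels name the knocked-out gene but give no allele, strain or Cre, and they do not say whether libraries came from separate embryos, so the p-values measure the spread between these samples. The comparisons ask how the machinery's transcripts differed in embryos lacking Fuz, a gene of the machinery itself, in embryos lacking Gpr161, a receptor of the ciliary membrane, and between the embryo's regions.

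The primary cilium is a microtubule-based extension of the cell surface, and vertebrate cells process Hedgehog signals through it. CPLANE proteins (here Fuz, Intu, Wdpcp and the small GTPase Rsg1) act at the base of the cilium and help to load IFT-A onto the transport trains. Trains of IFT-B and IFT-A carry cargo, with kinesin-2 moving towards the tip and cytoplasmic dynein 2 back to the base. The BBSome is an adaptor that takes membrane proteins out of the cilium, and the transition zone is the gate at its base. Promoters of many ciliary genes carry the X-box, the motif bound by RFX transcription factors.

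A RefSeq promoter entry (build GRCm38.p6) was matched for 39 of the 45 members. The other members are Rsg1, Ift80, Dync2li1, Tmem67, Ift122 and Ift81. The 250 bases before each start were searched on both strands for the X-box hexamer GTTGCC (1 arm of the motif) and for the longer palindromic form GTTNCCNNGGNAAC. A copy of the longer form can contain the hexamer, so the searches overlap. The hexamer was found in 10 of the 39 member promoters (25.6%) and in 3425 of 32851 promoters of all genes (10.4%). These 10 belong to Traf3ip1, Bbs7, Intu, Ttc26, Fuz, Kif3a, Mks1, Ift27, Ift57 and Ift140, with 2 copies in Fuz and in Ift57. The longer form was found in 3 of the 39 (7.69%), those of Bbs7, Ttc26 and Mks1, and in 123 of the 32851 (0.374%). These matches are descriptions of letters, and whether a factor binds there was not measured.

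The windows below are those of Fuz, the targeted member, of 4 members called between Head and Tail (Intu, Kif3a, Ift57 and Ift27), and of the 3 with the longer motif. The other members called between Head and Tail, Wdpcp and Bbs1, had a promoter entry but no match to either motif, and are not shown. All lie upstream of the start, are written 5′ to 3′ on the gene's strand, and have the motif in capitals. Windows were shortened where bases were annotated as untranslated region. The exceptions are Ttc26 and Ift27, for which only the 30 bases around the motif are shown, without this shortening. Both of these motifs lie in bases annotated as untranslated region.
Fuz, chr7:44895829-44896078, plus strand: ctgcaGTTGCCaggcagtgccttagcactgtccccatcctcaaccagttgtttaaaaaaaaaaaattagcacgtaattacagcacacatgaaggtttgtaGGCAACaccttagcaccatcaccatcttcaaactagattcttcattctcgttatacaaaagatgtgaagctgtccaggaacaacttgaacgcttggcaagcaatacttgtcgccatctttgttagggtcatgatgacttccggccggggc
Intu, chr3:40540517-40540766, plus strand: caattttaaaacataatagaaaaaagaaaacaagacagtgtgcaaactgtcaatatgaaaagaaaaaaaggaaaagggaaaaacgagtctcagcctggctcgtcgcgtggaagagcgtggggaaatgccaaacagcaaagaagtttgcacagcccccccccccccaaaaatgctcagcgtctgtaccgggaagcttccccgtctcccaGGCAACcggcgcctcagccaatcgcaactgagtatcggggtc
Kif3a, chr11:53567119-53567368, plus strand: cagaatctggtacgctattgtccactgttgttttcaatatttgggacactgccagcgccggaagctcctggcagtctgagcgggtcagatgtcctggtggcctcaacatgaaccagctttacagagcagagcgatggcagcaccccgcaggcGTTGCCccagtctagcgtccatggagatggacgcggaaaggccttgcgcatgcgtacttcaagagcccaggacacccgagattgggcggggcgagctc
Ift57, chr16:49699044-49699232, plus strand: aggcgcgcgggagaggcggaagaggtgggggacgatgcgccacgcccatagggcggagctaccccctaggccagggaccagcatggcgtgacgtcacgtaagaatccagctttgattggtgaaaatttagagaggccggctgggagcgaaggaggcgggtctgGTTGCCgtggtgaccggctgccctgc
Ift27, chr15:78174082-78174111, minus strand: ggagaaggcgggttgatgatgGTTGCCagg
Mks1, chr11:87852965-87853214, plus strand: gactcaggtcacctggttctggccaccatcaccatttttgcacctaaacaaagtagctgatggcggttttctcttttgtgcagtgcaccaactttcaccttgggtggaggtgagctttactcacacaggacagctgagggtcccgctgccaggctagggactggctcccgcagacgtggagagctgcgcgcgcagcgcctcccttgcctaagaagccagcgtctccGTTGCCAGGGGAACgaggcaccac
Bbs7, chr3:36613478-36613639, minus strand: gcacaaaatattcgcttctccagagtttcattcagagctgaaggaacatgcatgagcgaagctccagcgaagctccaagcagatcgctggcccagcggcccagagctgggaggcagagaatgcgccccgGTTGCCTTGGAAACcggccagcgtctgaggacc
Ttc26, chr6:38381483-38381512, plus strand: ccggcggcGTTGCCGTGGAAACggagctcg
The hexamer of Intu lay 42 to 37 bases before the start and read GGCAAC on the printed strand, that is, GTTGCC on the other strand. In Kif3a the hexamer lay 98 to 93 bases before the start, in Ift27 9 to 4, and in Ift57 the copies lay 87 to 82 and 60 to 55. The printed Ift57 window ends 62 bases before the start, so it shows the copy at 87 to 82 and the other lies outside it. The longer motif read GTTGCCAGGGGAAC in Mks1, GTTGCCTTGGAAAC in Bbs7 and GTTGCCGTGGAAAC in Ttc26.

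Total counts ran from 39062489 to 53680317 per library, and levels are given as CPM (counts scaled to a common library total) after TMM scaling, a correction for library composition. All 45 members had counts in all 16 libraries, and all 45 were among the 21284 genes that passed the filter on low counts. The lowest count of any member was 34, for Fuz in a library lacking Fuz, and the lowest among the other 44 was 56, for Rsg1. Region markers were checked against the labels. All 11 of 11 posterior markers were under 1 CPM in every Head library. Of the anterior markers, Otx2, Otx1, Six3 and Rax were under 1 CPM in every Tail library, while Lhx2, Emx2, En1, Hesx1 and Dlx5 overlapped between the regions. The libraries also differed in ways that bear on the genotype comparisons. All 4 WT libraries were female and all 8 libraries lacking Fuz were male, while the Gpr161 KO libraries numbered 1 were male and those numbered 2 female, so the absence of Fuz and sex cannot be fully told apart. A term for sex thus rests on the Gpr161 KO libraries alone, 1 male and 1 female in each region. These also differed in hypoxia genes, as given below, so that term is not a clean adjustment for sex. Genes of hypoxia and glycolysis were higher in the library numbered 1 than in that numbered 2 of each mutant group, with a median log2 difference from WT of 3.00 in Head Fuz KO 1, 2.43 in Tail Fuz KO 1, 2.40 in Head DKO 1 and 1.85 in Tail DKO 1. The corresponding medians for the libraries numbered 2 were 0.15, 0.14, 0.60 and 0.35, and the Gpr161 KO medians were 1.39 and 0.78 in Head and 1.22 and 0.38 in Tail. Their part in the results was not tested beyond the refits without those libraries. The 8 erythroid marker genes were all at 1 CPM or more in every group. In Head they summed to between 7357 and 9226 CPM in WT and between 7565 and 10431 CPM in Gpr161 KO, above the 4173 to 5239 CPM of Fuz KO and the 2670 to 6557 CPM of DKO. In Tail the sums ran from 4465 to 7815 CPM in WT, 4855 to 6871 CPM in Gpr161 KO, 6632 to 7516 CPM in Fuz KO and 8947 to 9025 CPM in DKO. The part of these markers in the results was not tested.

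In WT embryos the complexes differed in level per annotated exon length. That length was the union of all annotated exons of a gene, and it can exceed the length of the transcripts present. Other lengths were not tried, so the order of close values is uncertain. Compared per length as TPM (scaled by exon length from GENCODE M21), the median member of CPLANE stood at 4.43 TPM, of the transition zone at 8.75, of the BBSome at 10.49, of IFT-A at 16.1, of IFT-B at 27.7 and of the motors at 31.4. The highest WT levels (mean ± SD, n = 4 libraries over both regions) were those of the IFT-B genes Ift74, at 98.5 ± 9.80 TPM, and Ift20, at 86.0 TPM ± 8.28. They were followed by Kifap3, the kinesin-2 accessory subunit, at 68.5 TPM, Kif3a at 57.5 TPM and Ift52 at 50.3 TPM. The 3 lowest of the 45 were all CPLANE genes, with Wdpcp at 4.60, Fuz at 4.27 and Rsg1 at 4.19 TPM, next below the transition zone gene Tctn1 at 4.63 TPM. In bulk tissue, fewer cells of a type and less RNA per cell cannot be told apart.

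Of the 45 members, Fuz alone passed the test for the loss of Fuz. In Head, Fuz stood at 6.82 and 7.84 CPM (WT), 0.909 and 1.66 (Fuz KO), 8.10 and 9.22 (Gpr161 KO) and 1.22 and 1.89 (DKO). In Tail, Fuz stood at 5.17 and 5.35 CPM (WT), 0.877 and 1.26 (Fuz KO), 4.95 and 7.10 (Gpr161 KO) and 0.808 and 1.53 (DKO). Each of the 8 libraries lacking Fuz lay below each of the 8 libraries with it. The transcript remained detected in the knockouts: the 4 Head libraries lacking Fuz held 12.4%, 22.7%, 16.7% and 25.8% of the Head WT mean, and the 4 Tail libraries held 16.7%, 23.9%, 15.4% and 29.0% of the Tail WT mean. These values rest on 34 to 80 counts per library. Which exons the remaining reads cover cannot be read from counts per gene, and the deleted part of the gene is not named. Averaged over the 4 differences that set a group lacking Fuz against its counterpart (Fuz KO against WT and DKO against Gpr161 KO, in each region), Fuz fell by 2.41 on the log2 scale (SE 0.19, 95% interval −2.83 to −1.99, adjusted p = 2.68e-05, edgeR's quasi-likelihood test over all genes). In single comparisons the call was reached in Head Fuz KO against WT at log2 −2.50 (SE 0.39, adjusted p = 0.0493), where 0.047% of all genes tested were called. It was not reached in Head DKO against WT, at −2.23 (adjusted p = 0.0942), in Tail Fuz KO against WT, at −2.30 (adjusted p = 0.241), or in Tail DKO against WT, at −2.16 (adjusted p = 0.13). In those comparisons 0.0329%, 0.0094% and 0.0423% of all genes were called, and DESeq2 called Fuz in each of them. The call in Head Fuz KO was close to the threshold and was kept in 9 of 25 alternative settings, with log2 values between −3.05 and −2.13 over all 25.

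Gpr161, the other targeted gene and not a member, had a low level wherever it was knocked out. In Head, Gpr161 stood at 55.0 and 54.0 CPM (WT), 25.4 and 52.5 (Fuz KO), 4.21 and 4.31 (Gpr161 KO) and 3.49 and 5.44 (DKO). In Tail, Gpr161 stood at 46.8 and 51.5 CPM (WT), 24.3 and 42.7 (Fuz KO), 4.98 and 4.08 (Gpr161 KO) and 2.12 and 3.29 (DKO). The 8 libraries labelled as lacking Gpr161 were thus all below the 8 others, and the gene fell by 3.47 on the log2 scale (adjusted p = 1.44e-06, edgeR). Fuz KO 1, highest in hypoxia genes, was the lowest for Gpr161 of the 4 Head libraries with that gene intact, and likewise in Tail.

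**Figure D1:**
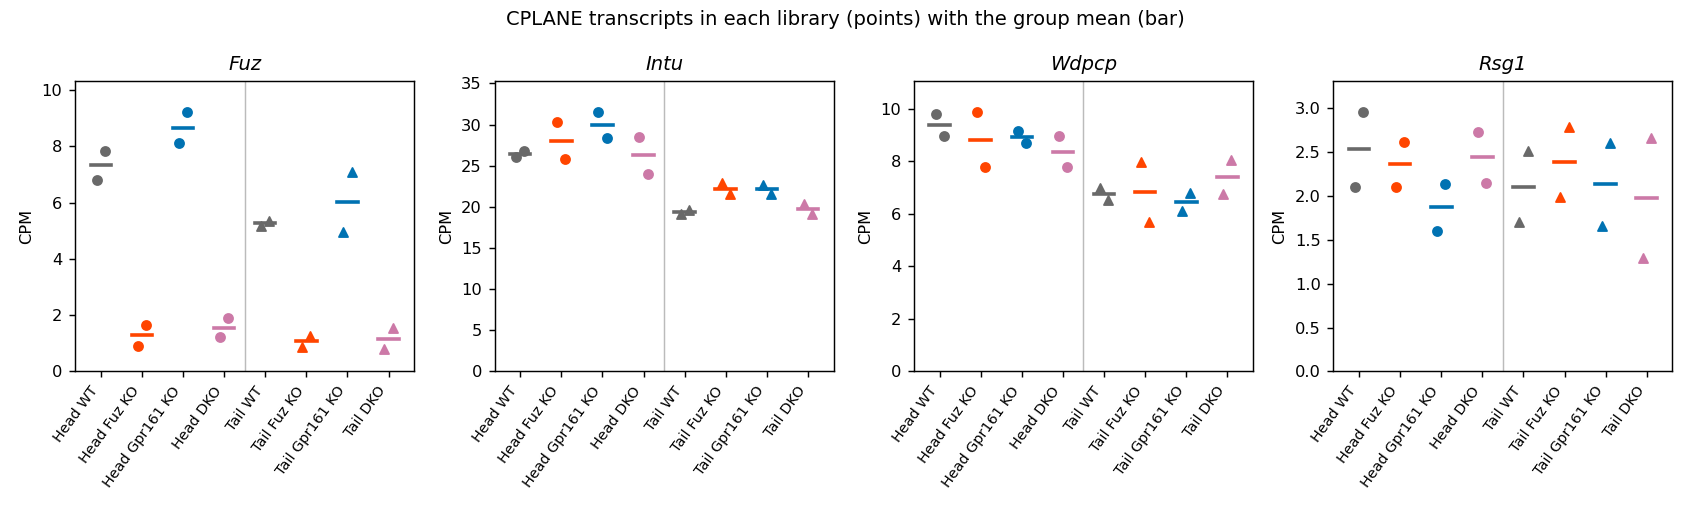
Levels of the 4 CPLANE genes in CPM (linear axis from 0) for the 8 groups, where each point is 1 library (Head circles, Tail triangles) and each bar is the mean of 2 libraries. Fuz sits between 0.808 and 1.89 CPM in the 8 libraries lacking it and between 4.95 and 9.22 CPM in the 8 others, while Intu, Wdpcp and Rsg1 overlap between genotypes.

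The other CPLANE genes did not pass the test for a loss of Fuz. Intu encodes the partner of Fuz in the core of the complex. In Head, Intu stood at 26.0 and 26.8 CPM (WT), 30.3 and 25.8 (Fuz KO), 31.5 and 28.4 (Gpr161 KO) and 28.5 and 24.0 (DKO). In Tail, Intu stood at 19.1 and 19.6 CPM (WT), 22.9 and 21.6 (Fuz KO), 22.7 and 21.6 (Gpr161 KO) and 20.4 and 19.2 (DKO). Libraries lacking and having Fuz overlapped in both regions, and in the mean difference between embryos lacking and having Fuz the log2 value was −0.02 (95% interval −0.17 to 0.13). Wdpcp, a propeller-domain protein of the same complex, followed. In Head, Wdpcp stood at 9.80 and 8.94 CPM (WT), 9.87 and 7.78 (Fuz KO), 9.14 and 8.70 (Gpr161 KO) and 8.95 and 7.76 (DKO). In Tail, Wdpcp stood at 6.96 and 6.52 CPM (WT), 7.97 and 5.68 (Fuz KO), 6.11 and 6.79 (Gpr161 KO) and 6.77 and 8.05 (DKO). Its log2 difference was 0.01 (95% interval −0.23 to 0.25), and libraries lacking and having Fuz overlapped in both regions. Rsg1 is the small GTPase that the complex holds. In Head, Rsg1 stood at 2.11 and 2.96 CPM (WT), 2.10 and 2.62 (Fuz KO), 1.60 and 2.14 (Gpr161 KO) and 2.73 and 2.15 (DKO). In Tail, Rsg1 stood at 1.70 and 2.52 CPM (WT), 1.99 and 2.79 (Fuz KO), 1.66 and 2.61 (Gpr161 KO) and 1.29 and 2.66 (DKO). Libraries lacking and having Fuz overlapped in both regions. Its difference of 0.09 had the wider interval of −0.35 to 0.53.

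**Figure D2:**
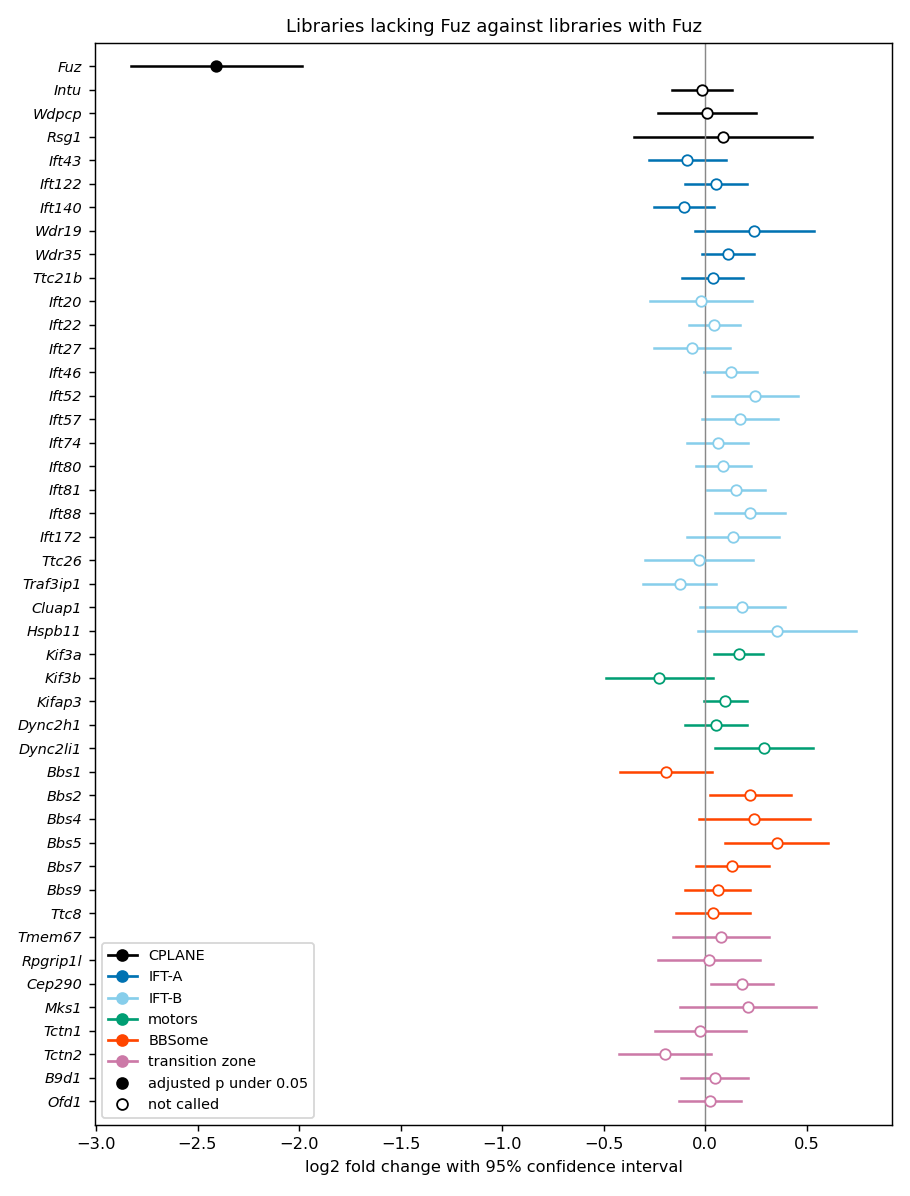
Log2 difference between groups lacking and groups having Fuz (mean of 4 differences) for the 45 members by complex, with 95% intervals, where filled points passed an adjusted p of 0.05. Fuz lies at −2.41, and the other 44 lie between −0.23 (Kif3b) and 0.36 (Hspb11).

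Of the 44 members other than Fuz, none was called for the loss of Fuz by edgeR's quasi-likelihood test, while 7.80% of all genes tested were called in this comparison. At an unadjusted p under 0.05 there were 8 of the 44, and DESeq2, which called 14.3% of all genes, called 2 of them (Bbs5, adjusted p = 0.0213, and Kif3a, adjusted p = 0.0422). All 8 had values above 0. Among all genes tested 26.0% had an unadjusted p that low. The median log2 difference of the 44 was 0.07, beside 0.01 over all genes. All 44 lay within 0.5 of 0 on the log2 scale, as did 79.2% of all genes, and their 95% intervals together spanned −0.49 to 0.74. By complex, values above 0 were found for 4 of 6 IFT-A genes, 11 of 15 IFT-B genes, 4 of 5 motor genes, 6 of 7 BBSome genes and 6 of 8 transition zone genes. The share of all genes with a value above 0 was not counted. The median was 0.04 for IFT-A, 0.13 for IFT-B, 0.10 for the motors, 0.13 for the BBSome and 0.03 for the transition zone.

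In IFT-A, the complex that CPLANE helps to load, the smallest p-values belonged to Wdr35, a peripheral subunit, and Wdr19, a core subunit. In Head, Wdr35 stood at 44.3 and 41.4 CPM (WT), 37.0 and 45.1 (Fuz KO), 34.9 and 37.1 (Gpr161 KO) and 44.3 and 40.9 (DKO). In Tail, Wdr35 stood at 41.7 and 41.0 CPM (WT), 44.8 and 44.6 (Fuz KO), 40.5 and 43.0 (Gpr161 KO) and 44.3 and 48.8 (DKO). In Tail the 4 libraries lacking Fuz all lay above the 4 having it, and in Head they overlapped. The share of all genes that separate by Fuz in this way was not counted, here or for the members below. The mean difference of Wdr35 for the loss of Fuz was log2 0.11 (SE 0.06, adjusted p = 0.254). In Head, Wdr19 stood at 25.0 and 23.0 CPM (WT), 31.0 and 28.1 (Fuz KO), 32.2 and 28.5 (Gpr161 KO) and 35.4 and 24.5 (DKO). In Tail, Wdr19 stood at 18.9 and 20.0 CPM (WT), 40.1 and 20.7 (Fuz KO), 26.7 and 24.4 (Gpr161 KO) and 31.3 and 21.0 (DKO). Libraries lacking and having Fuz overlapped in both regions, with Tail Fuz KO 1 the highest of all. The mean difference was log2 0.24 (SE 0.14, adjusted p = 0.282). Ift140 is another core subunit. In Head, Ift140 stood at 64.0 and 51.9 CPM (WT), 60.4 and 56.9 (Fuz KO), 70.2 and 64.1 (Gpr161 KO) and 55.7 and 57.8 (DKO). In Tail, Ift140 stood at 56.3 and 48.8 CPM (WT), 61.4 and 50.6 (Fuz KO), 55.6 and 58.9 (Gpr161 KO) and 50.4 and 43.3 (DKO). Libraries lacking and having Fuz overlapped in both regions, and the log2 difference was −0.11. The remaining IFT-A genes were Ift122, with a log2 difference for the loss of Fuz of 0.05, Ift43, with −0.09, and Ttc21b, with 0.04.

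In IFT-B the smallest p-values for the loss of Fuz were those of Ift88 and Ift52, both core subunits of the train. In Head, Ift88 stood at 24.4 and 22.5 CPM (WT), 26.6 and 26.5 (Fuz KO), 21.1 and 23.0 (Gpr161 KO) and 30.0 and 24.9 (DKO). In Tail, Ift88 stood at 23.5 and 21.4 CPM (WT), 31.6 and 23.0 (Fuz KO), 23.3 and 24.2 (Gpr161 KO) and 25.2 and 26.1 (DKO). In Head the 4 libraries lacking Fuz all lay above the 4 having it, and in Tail they overlapped. The mean difference of Ift88 was log2 0.22 (SE 0.08, adjusted p = 0.104). In Head, Ift52 stood at 44.1 and 39.8 CPM (WT), 62.0 and 42.7 (Fuz KO), 46.5 and 44.5 (Gpr161 KO) and 55.3 and 46.2 (DKO). In Tail, Ift52 stood at 41.3 and 41.7 CPM (WT), 61.5 and 42.9 (Fuz KO), 39.6 and 45.5 (Gpr161 KO) and 52.4 and 43.6 (DKO). In each region the highest Ift52 value was that of Fuz KO 1, and the mean difference was log2 0.25 (SE 0.10, adjusted p = 0.135). Hspb11 (Ift25), a subunit that pairs with Ift27, had the largest value of the 44, at log2 0.36 (SE 0.18, adjusted p = 0.230). In Head, Hspb11 stood at 6.93 and 6.73 CPM (WT), 13.0 and 6.04 (Fuz KO), 7.98 and 8.56 (Gpr161 KO) and 9.94 and 6.30 (DKO). In Tail, Hspb11 stood at 7.11 and 6.54 CPM (WT), 13.5 and 7.01 (Fuz KO), 7.20 and 6.87 (Gpr161 KO) and 10.00 and 8.38 (DKO). Its high values were likewise those of the Fuz KO 1 libraries, at log2 differences of 0.88 and 0.94 from the WT mean of their region. Over the 15 IFT-B genes, 3 had an unadjusted p under 0.05.

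Among the motors, Kif3a, a motor subunit of kinesin-2, and Dync2li1, the light intermediate chain of dynein 2, came first. In Head, Kif3a stood at 67.3 and 60.6 CPM (WT), 75.5 and 67.1 (Fuz KO), 55.5 and 60.7 (Gpr161 KO) and 72.5 and 65.5 (DKO). In Tail, Kif3a stood at 57.1 and 59.2 CPM (WT), 60.0 and 57.6 (Fuz KO), 53.8 and 50.3 (Gpr161 KO) and 58.3 and 64.6 (DKO). Libraries lacking and having Fuz overlapped in both regions. The mean difference for the loss of Fuz missed the threshold, at log2 0.17 (SE 0.06, adjusted p = 0.0871). In Head, Dync2li1 stood at 17.9 and 18.7 CPM (WT), 25.7 and 20.2 (Fuz KO), 14.1 and 17.3 (Gpr161 KO) and 22.4 and 22.9 (DKO). In Tail, Dync2li1 stood at 15.2 and 17.7 CPM (WT), 23.9 and 14.3 (Fuz KO), 18.1 and 18.7 (Gpr161 KO) and 21.6 and 17.4 (DKO). In Head the 4 libraries lacking Fuz all lay above the 4 having it, and in Tail they overlapped. The difference of Dync2li1 was log2 0.29 (SE 0.11, adjusted p = 0.127). Kif3b, the other motor subunit, had the lowest value of the 44, at −0.23, and Kif3b stood at a log2 difference of −0.69 in Head Fuz KO 1 and −0.66 in Tail Fuz KO 1.

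In the BBSome, Bbs5 had the smallest p of the 44 members. In Head, Bbs5 stood at 7.42 and 6.27 CPM (WT), 9.35 and 8.54 (Fuz KO), 7.81 and 5.14 (Gpr161 KO) and 10.1 and 7.86 (DKO). In Tail, Bbs5 stood at 9.29 and 8.35 CPM (WT), 11.7 and 9.56 (Fuz KO), 8.20 and 8.68 (Gpr161 KO) and 9.68 and 10.9 (DKO). In each region the 4 libraries lacking Fuz lay above the 4 having it. The mean difference was log2 0.35 (SE 0.12, adjusted p = 0.0844), with a 95% interval of 0.10 to 0.60. With sex as a term, which rests on the Gpr161 KO libraries alone, the Bbs5 value was 0.16 (adjusted p = 0.893). Bbs2, a core subunit, followed. In Head, Bbs2 stood at 18.1 and 20.6 CPM (WT), 26.4 and 22.3 (Fuz KO), 18.0 and 23.1 (Gpr161 KO) and 24.9 and 21.2 (DKO). In Tail, Bbs2 stood at 18.0 and 18.5 CPM (WT), 26.0 and 20.6 (Fuz KO), 22.2 and 20.6 (Gpr161 KO) and 24.4 and 19.4 (DKO). Libraries lacking and having Fuz overlapped in both regions. Its mean difference was log2 0.22 (SE 0.09, adjusted p = 0.152).

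In the transition zone the first places were those of Cep290, which links the ciliary membrane to the microtubules, and Tctn2, a tectonic protein. In Head, Cep290 stood at 32.5 and 29.8 CPM (WT), 28.9 and 31.6 (Fuz KO), 28.2 and 25.5 (Gpr161 KO) and 39.1 and 29.7 (DKO). In Tail, Cep290 stood at 32.6 and 29.0 CPM (WT), 37.9 and 37.4 (Fuz KO), 32.7 and 31.0 (Gpr161 KO) and 34.3 and 34.9 (DKO). In Tail the 4 libraries lacking Fuz all lay above the 4 having it, and in Head they overlapped. The mean difference of Cep290 was log2 0.18 (SE 0.07, adjusted p = 0.130). In Head, Tctn2 stood at 20.1 and 23.3 CPM (WT), 22.5 and 21.8 (Fuz KO), 29.4 and 31.5 (Gpr161 KO) and 24.4 and 19.7 (DKO). In Tail, Tctn2 stood at 17.4 and 22.6 CPM (WT), 23.0 and 17.0 (Fuz KO), 26.7 and 20.9 (Gpr161 KO) and 21.5 and 15.9 (DKO). The Head Gpr161 KO libraries were the highest for Tctn2, and libraries lacking and having Fuz overlapped in both regions. The difference of Tctn2 lay below 0, at log2 −0.20 (SE 0.11, adjusted p = 0.259). Ofd1, the X-linked gene of the set, stood at 0.02.

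Which members besides Fuz were called differed between settings, with libraries left out and also with all libraries kept. Fuz was called in all 25 alternative settings that were run for this comparison. Without Head Fuz KO 2, edgeR called 5 members (Bbs1, Fuz, Ift52, Kif3a and Kif3b), 2 with values above 0 and 3 below, where 17.6% of all genes were called. Without Tail Fuz KO 2 it called 4 (Dync2li1, Fuz, Ift52 and Ift88), where 2417 of 23020 genes tested were. Without both Fuz KO 1 and both DKO 1 libraries, the 4 with the highest hypoxia genes, it also called 4, where 13.4% of all genes were called, and these were Fuz at −2.09, Ift74 at 0.19 (adjusted p = 0.0152), Tctn2 at −0.36 (adjusted p = 0.0373) and Ift20 at 0.21 (adjusted p = 0.0452). In that refit Hspb11 stood at −0.07, Wdr19 at −0.07 and Ift52 at 0.03, so their values above 0 were not kept or nearly vanished. Bbs5 stood at 0.27, Kif3a at 0.14 and Ift88 at 0.13 there. With sex as a term only Fuz was called among the 45, at −2.14 (adjusted p = 0.0215), where 41 genes were called in all (0.193%). The reported fit treats Head and Tail libraries of the same number as separate, although their deviations correlate. With the Head and Tail counts summed per genotype and number, only Fuz was called among the 45, at −2.43 (adjusted p = 0.0077), where 0.625% of all genes were called.

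Single libraries stood apart among the members, and among all genes too. Against the WT mean of its region, a member differed by more than 0.5 on the log2 scale in 30 of the pairs of a member and a mutant library, Fuz left out. Of these 30, 26 fell in the 4 libraries numbered 1 of Fuz KO and DKO. Tail Fuz KO 1 had 11 such members (25.0% of the 44, beside 27.0% of all genes), Head Fuz KO 1 had 7 (15.9%, beside 34.9%), Head DKO 1 had 5 (11.4%, beside 18.7%) and Tail DKO 1 had 3 (6.82%, beside 14.5%). Past 0.5 in both Fuz KO 1 libraries were Hspb11, Ift172 (0.55 in Head and 0.61 in Tail), Ift52 (0.56 and 0.56), Kif3b and Mks1 (0.85 and 0.78), with Kif3b alone lower. Mks1 encodes a transition zone protein. In Tail Fuz KO 1 Wdr19 reached 1.03, and Ift20 stood at −0.71. The libraries numbered 2 of Fuz KO and DKO had no member past 0.5 in either region. Of all genes, 7.22% were past 0.5 in Head Fuz KO 2, 6.96% in Tail Fuz KO 2, 8.24% in Head DKO 2 and 11.0% in Tail DKO 2. The higher share in the libraries numbered 1 was thus found over all genes and not only in the members.

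**Figure D3:**
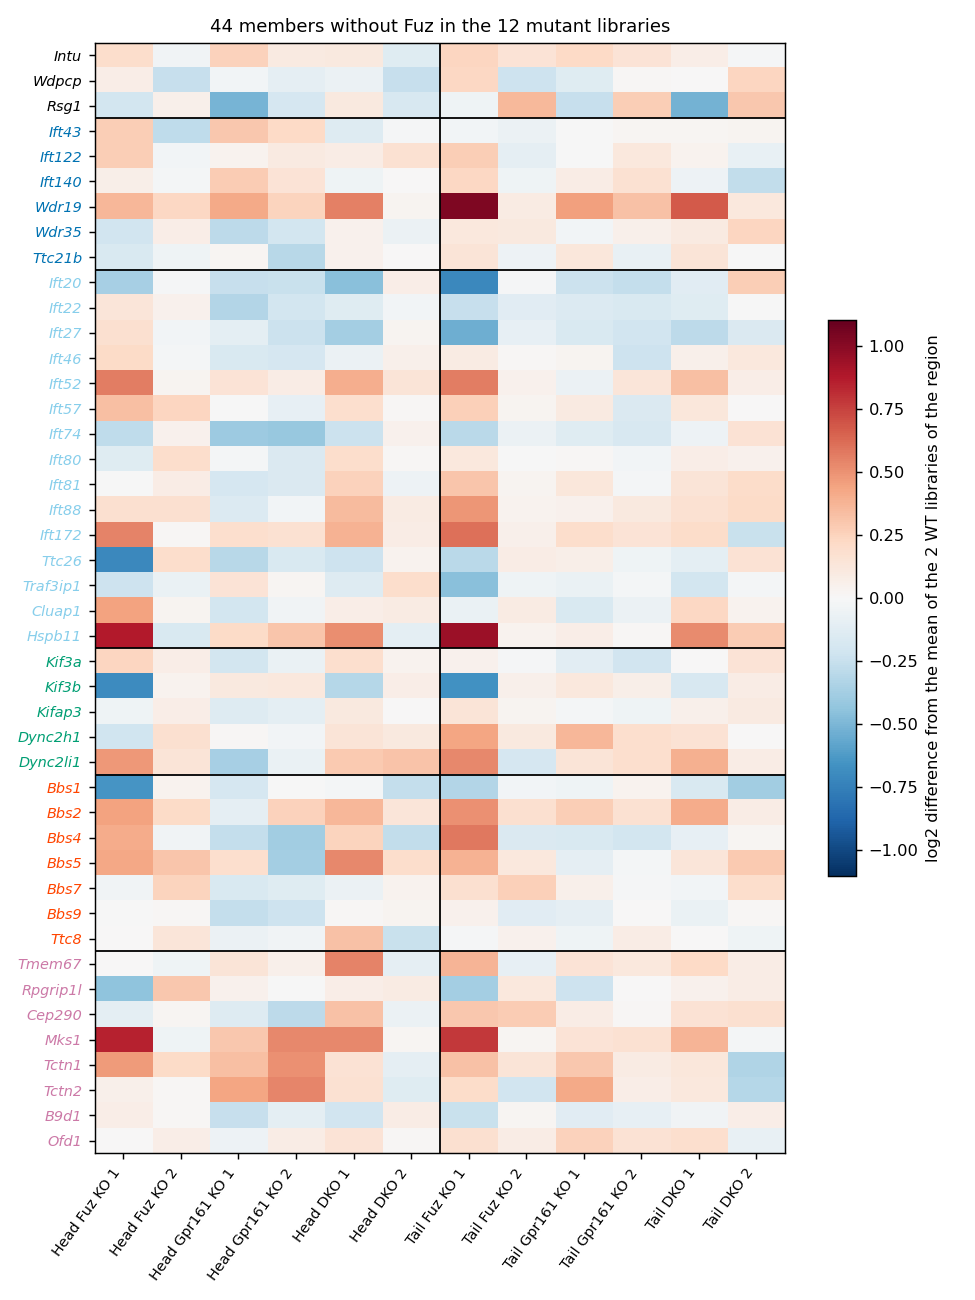
Log2 difference of 44 members (rows, by complex, Fuz left out) from the WT mean of their region in the 12 mutant libraries (columns), on a colour scale centred at 0. The strongest colours are in the Fuz KO 1 libraries, where Hspb11 reaches 0.88 and 0.94 and Kif3b −0.69 and −0.66, while the Fuz KO 2 and DKO 2 libraries hold no value past 0.5. In the Fuz KO 2 and DKO 2 libraries 6.96% to 11.0% of all genes were past 0.5.

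The comparisons of single groups with WT share their WT libraries, so each is given by its own values. In Head Fuz KO the 44 members ranged from −0.29 (Kif3b) to 0.48 (Mks1), with none called by edgeR or at an unadjusted p under 0.05, and a lowest adjusted p of 0.606 (Bbs2). Over all genes tested, 1739 of 21284 had an unadjusted p under 0.05. Without Head Fuz KO 2, the comparison called Fuz (−3.05, adjusted p = 0.00436), Ttc26 (−0.77, adjusted p = 0.0359) and Bbs1 (−0.71, adjusted p = 0.0437), and its mutant group was then Head Fuz KO 1 alone. In that refit 9.85% of all genes were called, beside 0.047% with both libraries. In Tail Fuz KO the members ranged from −0.32 (Ift20) to 0.65 (Wdr19), with Wdr19 the 1 member at an unadjusted p under 0.05 (beside 1109 of the 21284 genes tested) and a lowest adjusted p of 0.816. In Head DKO they ranged from −0.17 (Ift20) to 0.39 (Bbs5), and in Tail DKO from −0.28 (Bbs1) to 0.43 (Wdr19), with lowest adjusted p-values of 0.957 and 0.789. In these 3 groups neither edgeR nor DESeq2 called any of the 44, and in Head DKO and Tail DKO none had an unadjusted p under 0.05, beside 922 and 1530 of the 21284 genes tested.

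For the loss of Gpr161 no member was called by edgeR, none had an unadjusted p under 0.05 and none was called by DESeq2, while 0.926% of all genes were called and 10.9% had an unadjusted p that low. Fuz stood at 0.21, and the other 44 ran from −0.26 (Bbs4) to 0.16 (Tctn2), with 95% intervals spanning −0.60 to 0.43. Bbs4 is a BBSome subunit. In Head, Bbs4 stood at 15.9 and 14.2 CPM (WT), 20.1 and 14.7 (Fuz KO), 12.5 and 11.4 (Gpr161 KO) and 18.0 and 12.4 (DKO). In Tail, Bbs4 stood at 13.7 and 14.3 CPM (WT), 21.3 and 12.5 (Fuz KO), 12.5 and 12.2 (Gpr161 KO) and 13.2 and 14.2 (DKO). Tail Fuz KO 1 was the highest library for Bbs4, and its difference for the loss of Gpr161, log2 −0.26 (SE 0.13, adjusted p = 0.50), did not pass. Ift22, a small GTPase of IFT-B, had the lowest adjusted p, 0.490, at −0.12. In Head, Ift22 stood at 34.4 and 33.0 CPM (WT), 37.1 and 34.8 (Fuz KO), 26.8 and 29.2 (Gpr161 KO) and 30.7 and 33.0 (DKO). In Tail, Ift22 stood at 30.6 and 31.1 CPM (WT), 25.7 and 28.3 (Fuz KO), 27.7 and 27.4 (Gpr161 KO) and 28.1 and 30.7 (DKO). On the log2 scale all 45 members lay within 0.5 of 0, as did 84.3% of all genes.

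In Head Gpr161 KO against WT, where 2.02% of all genes were called, the members ranged from −0.44 (Rsg1) to 0.49 (Tctn2), with no call by edgeR or DESeq2 and a lowest adjusted p of 0.184 (Ift74, −0.41). At an unadjusted p under 0.05 were Ift74, Ift22 and Tctn2, beside 2747 of the 21284 genes tested. Cardiomyocyte genes summed to 555 and 2619 CPM in the Head Gpr161 KO libraries and to between 10.1 and 12.5 CPM in Head WT, and the part of this in the members' values was not tested. Without the Fuz KO 1 and DKO 1 libraries, which are outside this comparison and enter through the shared estimate of spread, Ift74 was called at −0.44 (adjusted p = 0.00441), where 9.86% of all genes were called. In Tail Gpr161 KO, where 0.305% of all genes were called, the members ranged from −0.25 (Ift20) to 0.39 (Wdr19), with a lowest adjusted p of 0.789. None had an unadjusted p under 0.05, beside 1486 of the 21284 genes tested, and DESeq2 called no member.

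The double knockout was also set against the sum of the single knockouts' log2 differences. No member was called by edgeR or DESeq2 as departing from that sum in Head, where 0.164% of all genes were, or in Tail, where 0.0423% were. At an unadjusted p under 0.05 there were 2 members in Head and 1 in Tail, beside 1707 and 1329 of the 21284 genes tested. The lowest adjusted p was 0.528 in Head (Tctn1, −0.75) and 0.772 in Tail (Dync2h1, the dynein 2 heavy chain, −0.47). The difference of the loss of Fuz between Tail and Head was called for no member (0.0564% of all genes, lowest adjusted p 0.972), nor was that of the loss of Gpr161 (0.0047% of all genes, lowest adjusted p 1). In both, DESeq2 also called none and no member had an unadjusted p under 0.05, beside 1345 and 872 of the 21284 genes tested.

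Differences between the regions reached 6 members. Averaged over the 4 genotypes, 6 of the 45 members were called, all higher in Head, where 23.9% of all genes tested were called in either direction. The 6 were 2 CPLANE genes (Intu and Wdpcp), 2 IFT-B genes (Ift57 and Ift27), the motor gene Kif3a and the BBSome gene Bbs1. The listed CPLANE genes had the highest median of the complexes, with a log2 value of 0.39, beside 0.14 for the BBSome, 0.11 for the transition zone, 0.07 for the motors, 0.06 for IFT-A and 0.00 for IFT-B. Cplane1, a CPLANE partner outside the 45, had similar medians of 49.5 CPM in Head and 47.9 CPM in Tail.

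**Figure D4:**
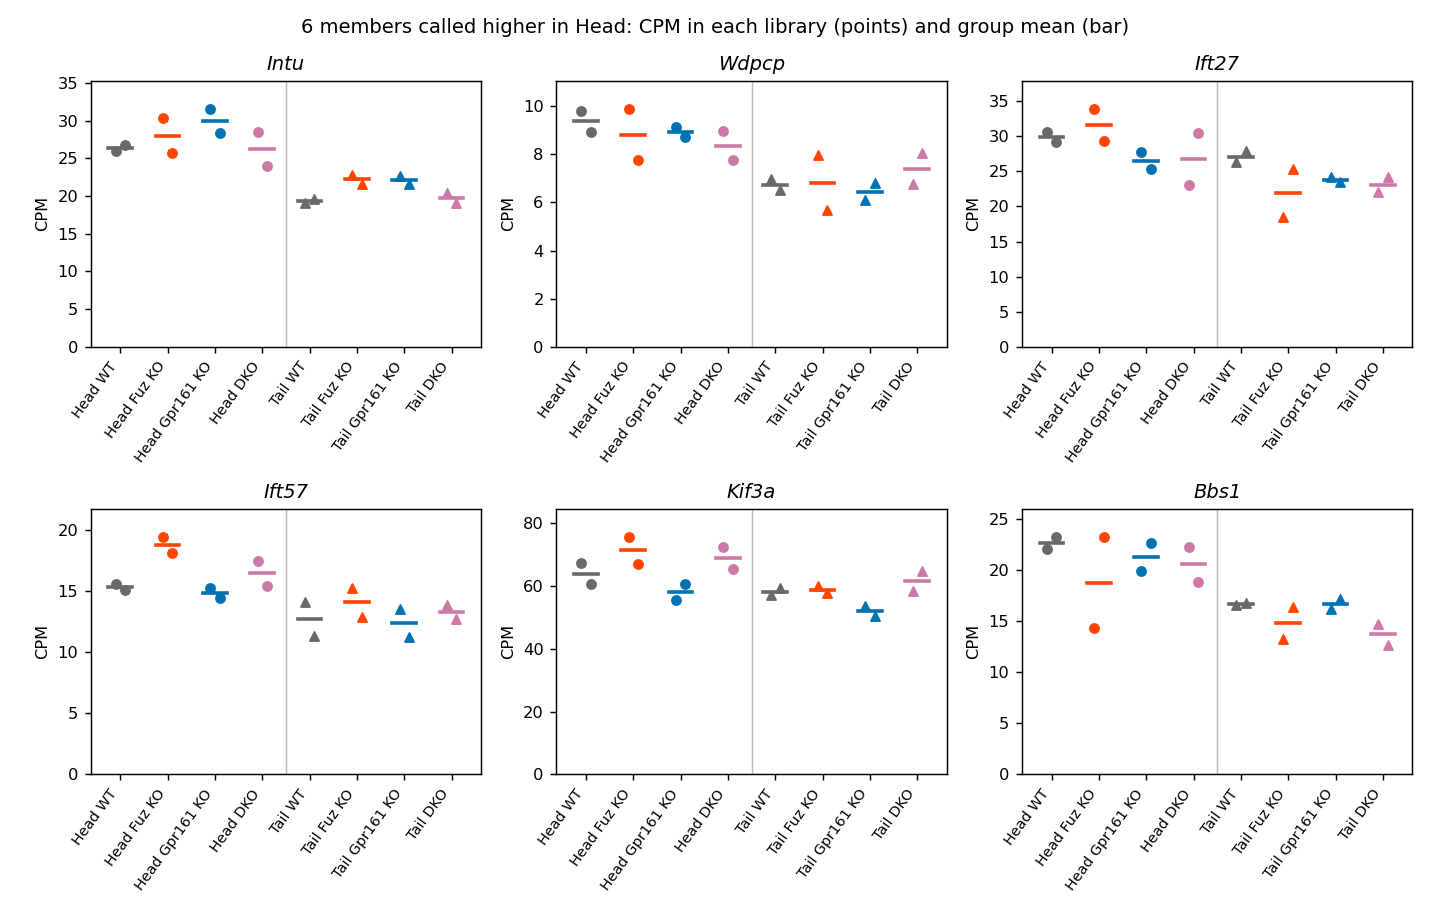
Levels in CPM (linear axis from 0) of the 6 members called between Head and Tail, by group, where each point is 1 library (Head circles, Tail triangles) and each bar is the mean of 2 libraries. Intu separates the regions, with its lowest Head library at 24.0 CPM and its highest Tail library at 22.9 CPM, and the others overlap.

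Intu was higher in Head by log2 0.41 (SE 0.07, adjusted p = 0.000712), with a 95% interval of 0.26 to 0.56 and the smallest p of the 45. It was the 1 member whose 8 Head libraries all lay above its 8 Tail libraries. How many of all genes separate the regions in this way was not counted. Wdpcp was higher by log2 0.37 (SE 0.11, adjusted p = 0.0266), and its Head value was above the Tail value of the same genotype and number in 7 of 8 pairs. Fuz itself stood at 0.42, with an adjusted p of 0.129, and its Head value was above the Tail value in 8 of 8 pairs. The share of all genes higher in Head in 8 of 8 pairs was not counted either. In a fit with a term for each genotype and number, which compares Head and Tail within a pair, Fuz passed at 0.42 (adjusted p = 0.0154).

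Bbs1, a BBSome subunit, had the largest difference of those called. In Head, Bbs1 stood at 22.1 and 23.2 CPM (WT), 14.3 and 23.2 (Fuz KO), 19.9 and 22.6 (Gpr161 KO) and 22.3 and 18.9 (DKO). In Tail, Bbs1 stood at 16.6 and 16.8 CPM (WT), 13.3 and 16.4 (Fuz KO), 16.2 and 17.1 (Gpr161 KO) and 14.8 and 12.7 (DKO). It was higher in Head by log2 0.43 (SE 0.11, adjusted p = 0.00897), with a 95% interval of 0.20 to 0.66, and in 8 of 8 pairs. The Head Fuz KO 1 library was low, at a log2 difference of −0.65 from the Head WT mean, and lay within the Tail range. Ift57, which links kinesin-2 to the train, was next. In Head, Ift57 stood at 15.6 and 15.0 CPM (WT), 19.4 and 18.1 (Fuz KO), 15.2 and 14.4 (Gpr161 KO) and 17.5 and 15.4 (DKO). In Tail, Ift57 stood at 14.1 and 11.3 CPM (WT), 15.2 and 12.9 (Fuz KO), 13.6 and 11.3 (Gpr161 KO) and 13.8 and 12.7 (DKO). The ranges of the regions overlapped, but it was higher in Head by log2 0.31 (SE 0.09, adjusted p = 0.0190) and in 8 of 8 pairs. Ift27, the small GTPase that pairs with Hspb11, followed. In Head, Ift27 stood at 30.6 and 29.2 CPM (WT), 33.8 and 29.3 (Fuz KO), 27.7 and 25.3 (Gpr161 KO) and 23.0 and 30.5 (DKO). In Tail, Ift27 stood at 26.3 and 27.9 CPM (WT), 18.5 and 25.4 (Fuz KO), 24.1 and 23.4 (Gpr161 KO) and 22.1 and 24.2 (DKO). Tail Fuz KO 1 was the lowest library. Ift27 was higher in Head by log2 0.26 (SE 0.09, adjusted p = 0.0447) and in 8 of 8 pairs, and Kif3a was higher by log2 0.19 (SE 0.06, adjusted p = 0.0275), also in 8 of 8 pairs.

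Near the threshold were Ift22 (0.17, adjusted p = 0.052), Ift140 (0.18, adjusted p = 0.0801), Bbs5 (−0.30, adjusted p = 0.0865), and the transition zone genes Tctn1 (0.24, adjusted p = 0.12) and Tctn2 (0.21, adjusted p = 0.17). Tctn1 is a tectonic protein like Tctn2. In Head, Tctn1 stood at 10.7 and 13.0 CPM (WT), 16.5 and 13.7 (Fuz KO), 15.0 and 16.9 (Gpr161 KO) and 13.2 and 11.0 (DKO). In Tail, Tctn1 stood at 10.7 and 11.0 CPM (WT), 13.7 and 12.0 (Fuz KO), 13.4 and 11.6 (Gpr161 KO) and 11.9 and 8.50 (DKO). Its regions overlapped. Bbs5 was the member farthest in the other direction.

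With a term for each genotype and number, which pairs Head and Tail, 14 members were called, where 37.4% of all genes were. These were the 6 above and Ift140 (0.18), Fuz, Ift22 (0.17), Tctn2 (0.22), Tctn1 (0.24) and Bbs9 (0.18), all higher in Head, and Bbs5 (−0.31, adjusted p = 0.0306) and Ift20 (−0.15, adjusted p = 0.0426), both lower. Intu and Bbs1 were called in all 24 alternatives run for this comparison, Ift57 in 16, Kif3a in 14, Wdpcp in 12 and Ift27 in 8. Without Head WT 1 or without Tail WT 2 only Intu and Bbs1 were called. Without Head Gpr161 KO 2, Head DKO 1, Tail WT 1, Tail Fuz KO 2, Tail Gpr161 KO 2 or Tail DKO 1, there were 3 calls each. Leaving out each library in turn, between 17.6% and 26.1% of all genes were called. DESeq2 called 9 members, 8 higher in Head and 1 lower, and 27.2% of all genes.

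**Figure D5:**
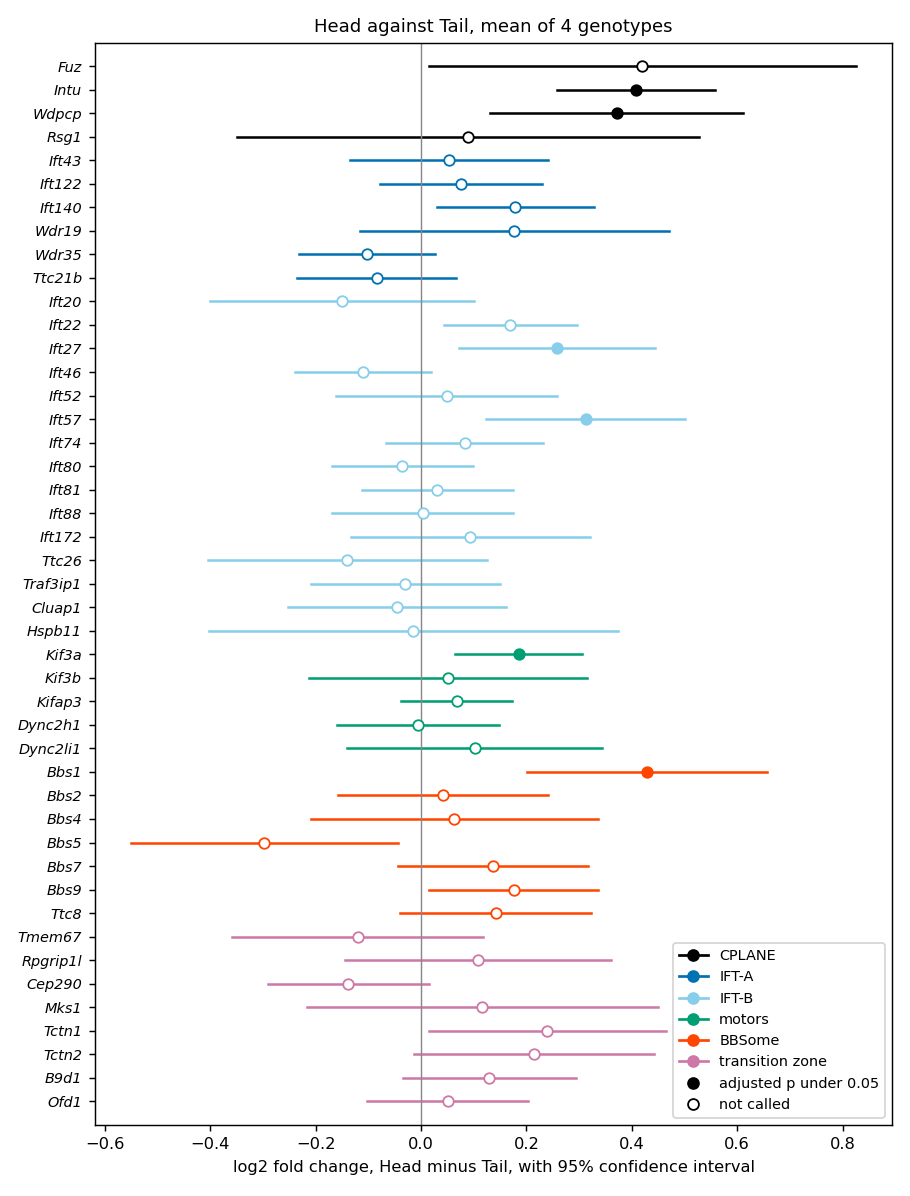
Log2 difference of Head minus Tail, averaged over the 4 genotypes, for the 45 members by complex, with 95% intervals, where filled points passed an adjusted p of 0.05. The 6 filled points lie between 0.19 (Kif3a) and 0.43 (Bbs1), and Bbs5 lies lowest at −0.30.

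In WT alone, with 2 libraries a region, no member was called by edgeR, where 3.77% of all genes were. Intu came closest (0.45, adjusted p = 0.111) and was the 1 member at an unadjusted p under 0.05 (beside 2920 of the 21284 genes tested) and the 1 that DESeq2 called. Without the Fuz KO 1 and DKO 1 libraries, which enter through the estimate of spread, Intu (adjusted p = 0.0225) and Bbs1 (adjusted p = 0.0442) were called, where 7.56% of all genes were.

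Beyond the members, 65 other ciliary genes were listed (CPLANE partners, other transition zone and motor genes, and transcription factors of ciliary genes), of which 64 passed the filter. For the loss of Fuz 7 of the 64 were called, 6 higher and 1 lower, where 7.80% of all genes were. Among the higher were Cep83, which anchors the basal body to the membrane, at log2 0.27 (SE 0.05, adjusted p = 0.0110), Tmem237, a transition zone protein, at log2 0.41 (SE 0.09, adjusted p = 0.0195), and Dynlt2b, a dynein 2 light chain, at log2 0.40 (SE 0.10, adjusted p = 0.0272). Cep83 ran from 65.4 to 80.7 CPM in the 8 libraries lacking Fuz, all narrowly above the 48.6 to 65.1 CPM of the 8 libraries with it. The share of all genes that separate by Fuz was not counted, for Cep83 or for Foxj1 below. Of 25 alternatives, Cep83 was called in 23, Tmem237 in 17 and Dynlt2b in 10. With sex as a term, which rests on the Gpr161 KO libraries alone, none of these 3 was called, with values of 0.22 for Cep83 (adjusted p = 0.605), 0.36 for Tmem237 (adjusted p = 0.632) and 0.42 for Dynlt2b (adjusted p = 0.598). Nor was any called with Head and Tail summed (adjusted p = 0.139, 0.157 and 0.199). Foxj1, the regulator of motile-cilium genes, fell by 0.86 (SE 0.19, adjusted p = 0.0207). In Head, Foxj1 stood at 16.1 and 10.6 CPM (WT), 4.60 and 5.42 (Fuz KO), 13.4 and 28.6 (Gpr161 KO) and 5.94 and 7.38 (DKO). In Tail, Foxj1 stood at 3.23 and 2.15 CPM (WT), 4.31 and 2.86 (Fuz KO), 3.63 and 4.75 (Gpr161 KO) and 2.98 and 1.84 (DKO). In Head every library lacking Fuz lay below every library with it, whereas the Tail libraries overlapped, and the difference between the regions was not called (log2 1.34, adjusted p = 0.367). With sex as a term, which for Foxj1 takes in the 13.4 and 28.6 CPM of the Head Gpr161 KO pair, the value was −0.27 (adjusted p = 0.87). With Head and Tail summed, the value of Foxj1 was −1.23 (adjusted p = 0.0826). Foxj1 was called in 17 of 25 alternatives.

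Between regions 13 of the 64 were called, 10 higher in Head and 3 lower, where 23.9% of all genes were called. Foxj1 was higher by log2 1.65 (SE 0.20, adjusted p = 4.14e-05), the RFX factors Rfx4 by log2 1.45 (SE 0.20, adjusted p = 0.000239) and Rfx2 by log2 1.13 (SE 0.12, adjusted p = 1.57e-05), and Ahi1, a transition zone gene, by log2 0.47 (SE 0.08, adjusted p = 0.000947). Motile-cilium genes (20 listed) summed to between 88.8 and 109 CPM in Head WT and between 57.7 and 59.9 CPM in Tail WT, and their part in the members' regional differences was not tested. In WT alone, Foxj1 (2.31, adjusted p = 0.00514) and Rfx2 (1.03, adjusted p = 0.0307) were called between regions.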

How the data were processed

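RNA was poly-A selected and made into NEBNext Ultra libraries, per the labels' protocols. The authors deposited counts that they had not normalized, in 1 file for each library. GRCm39 is the build in the submitters' processing notes, which list StringTie 2.0.4, STAR 2.7.1a, HTSeq, featureCounts 1.6.0, Picard 2.20.4, Trimmomatic and FastQC. Which tool counted, and whether it used strand, is not given in the sources used here, so reads of overlapping or antisense genes cannot be told apart. Names and exon lengths came from GENCODE M21 (54723 of 54838 identifiers had a symbol), and promoters from RefSeq's GRCm38.p6 table.

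Counts were fitted with edgeR 4.0.16 in R 4.3.3 (filterByExpr, TMM, quasi-likelihood F-test) in 1 model of 16 libraries and 8 groups of 2, with 8 residual degrees of freedom (common BCV 0.257, the biological variation between libraries of a group). P-values were adjusted by Benjamini-Hochberg over the 21284 genes tested, with a threshold of 0.05, and standard errors and 95% intervals came from the F statistic and its degrees of freedom. The comparisons were each mutant against WT in each region, the mean loss of Fuz and of Gpr161, Head against Tail, Head WT against Tail WT, non-additivity, and the difference of each loss between regions. Comparisons of mutants with WT share their WT libraries. The code was checked on simulated counts, with planted changes larger than the differences of members other than Fuz for the loss of Fuz. Those counts held no differences of sex or hypoxia and no pairing of Head and Tail. The check therefore does not bear on small differences or on those limits. Sex was read from Xist and Y-linked counts. A region marker is not reported here.

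The members and lists were chosen with earlier results of these data known. Named with every library's value were the CPLANE genes, Gpr161, each member called in a comparison, and per complex the 2 members with the smallest p for the loss of Fuz and the 1 with the smallest for the loss of Gpr161 and for Head against Tail. Of the other ciliary genes, up to 4 called ones per comparison were named by adjusted p. Hspb11 and the members given by single values were picked after their values were seen.

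Library numbers come from the labels, which do not say that they mark an embryo. Deviations from group means of same-numbered Head and Tail libraries correlated in each genotype (r = 0.133 for WT, 0.437 for Fuz KO, 0.196 for Gpr161 KO, 0.282 for DKO). The numbers were taken to pair Head with Tail, which is an assumption. Between genotypes of 1 region the correlations ran from −0.0787 to 0.302, and there the libraries share only a number. Between genotypes and across regions they ran from −0.0518 to 0.268. Only the Fuz KO value lay above both ranges, so these correlations do not establish the pairing. The alternatives were RLE scaling, other filters, regions fitted alone, the replicate block, DESeq2 1.42.0, sex as a term, Head and Tail counts summed per genotype and number (for the loss of Fuz and of Gpr161), and leaving out libraries. In comparisons between regions the replicate block was a term for each genotype and number. In the others it was a term for library number, shared by all genotypes. Where 1 library of a group remained, its spread was taken from the other groups.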

Additional observations from a re-analysis of the deposited data

How the results depend on the processing

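For the loss of Fuz, 1 member (Fuz) was called in the reported fit, beside 3 with a filter of at least 5 CPM, 2 with the replicate block, 3 with DESeq2, 4 without the Fuz KO 1 and DKO 1 libraries, and 1 to 5 leaving out each library in turn. For Head against Tail there were 6, beside 2 with no filter, 14 with the replicate block, which pairs Head and Tail, and 2 to 8 leaving out each library. For Head WT against Tail WT there were 0, beside 1 with the block, 1 with DESeq2 and 2 without the Fuz KO 1 and DKO 1 libraries. For Head Fuz KO there was 1, beside 0 with the 5 CPM filter, 0 with each region fitted alone, 0 without the Fuz KO 1 libraries, 0 without those and DKO 1, 0 with sex as a term, and 0 to 3 leaving out each library. For Head Gpr161 KO there were 0, beside 1 without the Fuz KO 1 and DKO 1 libraries. For Head DKO there were 0, beside 1 with no filter, with the block, with DESeq2 and without the Fuz KO 1 libraries, and 0 to 1 leaving out each library. For Tail Fuz KO there were 0, beside 1 with no filter, with the block and with DESeq2. For Tail DKO there were 0, beside 1 with no filter, with the block, with DESeq2, without the Fuz KO 1 libraries and without those and DKO 1, and 0 to 1 leaving out each library. In the other comparisons no count moved. The share of all genes called moved between settings too, as given above for several of them. A larger count here is therefore not by itself a result about the members. The cause of these changes was not tested. With 2 libraries a group, the 95% intervals above are what limits the statement that can be made of any single member.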
